A study of Rattus norvegicus with 6 samples.

Results

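Salivary glands of tickled rats were set against salivary glands of rats that received no stimulus on 1 two-colour Agilent array, 1 of the 6 arrays of the series. It was found by its title, and everything on it that carried a single gene symbol was used: a value for 10522 genes. The tickled animals were male Wistar rats, an outbred laboratory strain, caged singly behind screens from the age of 21 days and tickled on weekdays for 4 weeks in cycles that alternated 15 s without and 15 s with stimulation. The animals with no stimulus shared strain, sex, housing and the sampling age of 60 days. Tickling mimics rough play and evokes 50 kHz calls, which are taken as a sign of positive emotion. Light-touched rats were handled on the same schedule with a stimulus that does not in general evoke these calls; a second salivary array, tickled over light touch, and the arrays of striatum and peripheral leukocytes serve as context.

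Each gene value is a log2 ratio, tickled over no stimulus, so that 1 is 2-fold higher and -1 is 2-fold lower in tickled glands. The direction follows the dyes of the labels, Cy5 for tickled and Cy3 for no stimulus, and is not stated with the values. Base 2 is assumed; read as natural logs every value would be 1.44 times as large. There was 1 array and no dye swap, hence no p-value, and precision is bounded by that single array. The labels give 4 animals for each condition and 1 replicate for each array, and what stands behind that replicate, 1 animal or several, is not told by the sources used here. The same holds for which of the salivary glands were dissected and for whether both salivary arrays carried the same tickled RNA. The extraction text of the labels names hypothalamus for all samples. An error could be had only from genes read by several probes: over the 3674 genes with 2 or more, the SD between probes had a median of 0.10, and it says nothing of animals.

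Rats have 3 pairs of major salivary glands. The submandibular gland holds granular ducts, which store kallikreins and growth factors in secretory granules, the sublingual gland is built mainly of mucous acini, whose product is mucin, and the parotid gland is serous and rich in amylase. Secretion of all of them is driven by autonomic nerves, and granular ducts are also known to respond to androgens and thyroid hormone. In RNA from whole tissue, fewer cells of a type and less RNA per cell cannot be told apart.

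Ratios show no levels, so the tissue label could be checked only through which genes had a value. Of the 9 tissue kallikreins with a value here, 0 had one on a striatal array and 2 had one on a leukocyte array. Of 14 parotid proteins 11 had a value in striatum and 5 in leukocytes, and of 16 mucous genes 13 and 5. Over all genes of the salivary array the shares were 91.9% and 61.0%. The sources used here do not say by which rule values were left blank.

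A small share of genes differed by 2-fold or more, and some of these differences were wide. Of the 10522 genes, 98 (0.931%) were 2-fold or more higher and 107 (1.02%) were 2-fold or more lower in tickled glands, together 1.95%. Past 1.5-fold there were 309 higher (2.94%) and 288 lower (2.74%), together 5.67%. Above 0 lay 5071 genes, and below 0 lay 5451. Counts for the lists below are to be read against these shares. The lists and their members were chosen with earlier results of these data known. Past 4-fold there were 9 higher (0.0855%) and 29 lower (0.276%), so the far tail was longer on the lower side. The central 95% of genes lay between -0.61 and 0.63, with an SD across genes of 0.35. On the array of tickled over light-touched glands the same range was -0.38 to 0.39, with 20 genes 2-fold higher and 7 lower. Over no stimulus, striatum had 5 genes 2-fold higher and 10 lower of 10922, and leukocytes had 24 higher and 9 lower of 6316. All 98 higher genes and 94 of the 107 lower ones had a value on the light-touch array, and 90 and 75 of these lay within 1.5-fold there. Past 2-fold there, 1 of the 98 was higher and 0 were lower, and 5 of the 94 were lower and 4 higher. Over no stimulus, most of the genes past 2-fold rested on 1 probe, 87 of the 98 higher and 96 of the 107 lower. Among all genes this held for 6848 of 10522. Of the genes past 2-fold, 33 of the 98 higher and 36 of the 107 lower had no value in either other tissue. The share of all genes with no value in either was not counted. It can be no larger than the rest beside the 91.9% that had one in striatum.

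**Figure D1:**
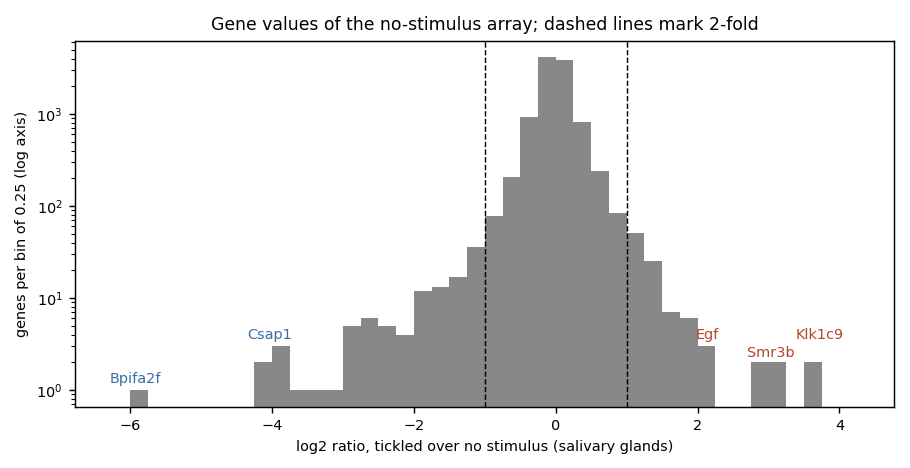
Number of genes (log axis) per bin of log2 ratio, tickled over no stimulus, for the 10522 genes with a value in salivary glands. Dashed lines mark 2-fold; the lower tail ends at Bpifa2f (-5.93) and the upper at Klk1c9 (3.73).

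Tissue kallikreins are serine proteases, and Klk1 cleaves kininogen to release kinins. All 8 genes of the Klk1 group that had a value were past 2-fold, and they took 8 of the 16 highest places among all genes. Klk1c9 had the highest gene value (3.73, 13.2-fold), followed by Klk1c2 (3.62) and Klk1c12 (3.08). Klk1c10, the only one of them with more than 1 probe, stood at 2.75 with its 2 probes at 1.60 and 3.91, and Klk1c8 stood at 2.15. Klk1 (1.88), Klk1c6 (1.80) and Klk1b3 (1.63) were the lowest of the group. On the light-touch array the same 8 genes lay between -0.32 and -0.11. Klk9, a kallikrein-related gene outside the Klk1 group, had -0.24 and -0.17 over no stimulus and light touch, and the other 8 listed kallikrein-related genes with a feature, such as Klk8 and Klk10, had no value. The median of the 9 was 2.15, against -0.01 over all genes. Kallikreins are the family reported from these samples by the study, so their direction here is no independent evidence.

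In RefSeq gene order (assembly GRCr8) the 8 Klk1-group genes follow each other without another measured gene between them. It was the only stretch of 3 or more neighbouring measured genes that were all past 2-fold. The members are close copies, so signal of 1 can reach the probe of another, and how many of them differ is uncertain. Promoter sequence was at hand for 7 of the 8 and is shown because it makes the likeness visible, beside that of Klk9, which was not past 1.5-fold. Capitals mark TTTAAA, a variant TATA element. It starts between 27 and 77 bases before the annotated start in 6 of the 7 and 9 bases after it in Klk1. Each line is 52 bases of RefSeq sequence (GRCr8), 5′ to 3′ on the strand of the gene, with the element at the same place. For Klk9, where TTTAAA is not in these letters, the 52 bases just before the annotated start are shown.
Klk1c2 (chr1:103633023-103633074, minus strand): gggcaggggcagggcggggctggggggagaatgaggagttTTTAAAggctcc
Klk1c12 (chr1:103518734-103518785, minus strand): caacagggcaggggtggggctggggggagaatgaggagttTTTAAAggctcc
Klk1c10 (chr1:103543652-103543703, minus strand): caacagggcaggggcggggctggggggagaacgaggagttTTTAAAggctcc
Klk1c8 (chr1:103684211-103684262, plus strand): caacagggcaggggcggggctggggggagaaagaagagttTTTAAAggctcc
Klk1 (chr1:103779121-103779172, plus strand): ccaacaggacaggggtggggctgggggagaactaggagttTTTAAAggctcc
Klk1c6 (chr1:103612382-103612433, minus strand): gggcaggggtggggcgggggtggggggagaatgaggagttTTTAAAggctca
Klk1b3 (chr1:103845580-103845631, plus strand): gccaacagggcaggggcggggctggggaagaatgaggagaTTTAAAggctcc
Klk9 (chr1:103382836-103382887, plus strand): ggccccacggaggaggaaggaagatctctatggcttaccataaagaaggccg

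After alignment with gaps, the stretches of Klk1c6, Klk1c12, Klk1c10, Klk1c8, Klk1b3 and Klk1 were between 79.6% and 92.3% identical to that of Klk1c2. That of Klk9 was 39.6% identical. The Klk1-group stretches were cut around TTTAAA and that of Klk9 at the annotated start, so this contrast depends in part on how they were chosen. The longer run TTTAAAGG, searched on both strands of the 300-base windows from 250 bases before to 50 after each start, was in all 7 Klk1-group promoters. It was in 10 of 82 promoters (12.2%) of genes 2-fold higher, the 7 among them, in 2 of 81 (2.47%) of genes 2-fold lower, in 129 of 8728 (1.48%) of all genes with a value and in 466 of 27457 promoters overall (1.70%). TTTAAA reads the same on both strands and overlaps the longer run. It was in 20.7% of promoters of genes 2-fold higher, 19.8% of those 2-fold lower, 9.11% of those of all genes with a value and 13.5% of all promoters. TATAAA, the usual TATA element, was in 0 of the 7, in 17.1% and 9.88% of the promoters of higher and lower genes, in 8.01% of those of all genes with a value and in 14.3% of all promoters. These matches are descriptions of sequence and say nothing of which factor binds.

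Of 7 other granular duct peptides and growth factors with a value, 3 were 2-fold higher and 0 lower, against 0.931% of all genes higher. Their median was 0.82 against no stimulus and 0.11 against light touch. With the median of the other tissues subtracted, the median against no stimulus was -0.028 over the 4 genes left. Smr3b and Cyss had no value in the other tissues and are not among those 4, so the medians before and after cover different genes. Smr3b, which encodes a prohormone of small peptides, had 3.03 with its 2 probes at 2.54 and 3.51, and 0.12 over light touch. Egf, epidermal growth factor, had 2.14 (4.40-fold) and -0.14 over light touch. Cyss, cystatin S, a secreted inhibitor of cysteine proteases, had 2.11 and -0.35. Smr3a had 0.82 and 0.50. Tgfa (0.08), Igf1 (0.04) and Edn1 (-0.26), growth factor and vasoactive peptide genes of many cell types, lay near 0. Hgf, Fgf2, Kng1 and Kng2 had a feature but no value.

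Further secreted proteins completed the upper end. Pip, prolactin-induced protein, had 1.87 (3.66-fold), Oprpn, the precursor of opiorphin-type peptides, 1.80, and Grpca, a salivary protein rich in glutamine and glutamic acid, 1.78. Over light touch they had -0.01, 0.07 and 0.18. Svs6, known as a seminal vesicle secretory protein, had 1.94 and -0.42. Prpmp5, a proline-rich protein gene, differed from these in having 1.51 over no stimulus and 1.17 over light touch. Oprpn and Smr3b are neighbours in gene order. Among the other genes of the 25 highest, Sytl5, a synaptotagmin-like effector of vesicle traffic, had 1.60, the calprotectin subunit gene S100a9 1.55, Tgfb2, transforming growth factor beta 2, 1.47, and Oxt, oxytocin, 1.42. The olfactory receptor gene Or8c16 had 2.85 on a single probe, place 5 from the top among gene values.

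**Figure D2:**
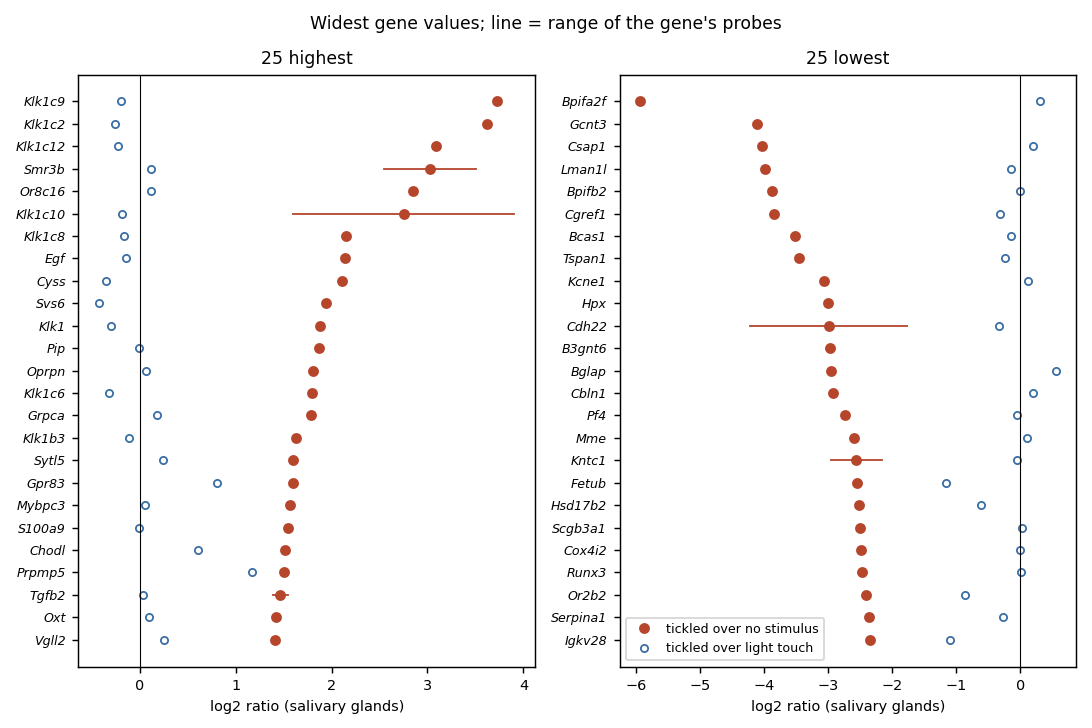
The 25 highest and 25 lowest genes by log2 ratio, tickled over no stimulus (filled), with the range of their probes (line) and the value over light touch (open, where there was one). Values over no stimulus reach 3.73 and -5.93, whereas the open points of most genes stay near 0.

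The widest gene value was on the lower side. Bpifa2f, a secreted BPI-fold protein gene, had -5.93 (61.1-fold lower) and 0.32 over light touch, and Bpifb2, of the same family, had -3.88 and -0.01. The other members did not share this: Bpifa2, which encodes parotid secretory protein, stood at -0.59 and 2.31, and Bpifa1 (-0.07), Bpi (-0.10), Lbp (-0.05), Pltp (0.39) and Bpifa5 (0.53) lay within 1.5-fold. Csap1, common salivary protein 1, had -4.03 and 0.19. Lman1l, related to a lectin that carries glycoproteins out of the endoplasmic reticulum, had -3.99 and -0.15, and Cgref1 had -3.85 and -0.32. Csap1, Lman1l and Cgref1 were listed with other secreted salivary proteins. Of the 24 genes of that list with a value, 4 were 2-fold lower, these among them, and 1 was higher, against 1.02% and 0.931% of all genes. Of the 24, 17 lay within 1.5-fold, and their median was 0.05. Lyz2, lysozyme (0.29), Wfdc2 (-0.35) and Clu, clusterin (0.23), lay within 1.5-fold.

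Enzymes that build mucin sugars and the factors of mucous cells were mostly low. Of the 16 with a value, 7 were 2-fold lower and 0 higher, against 1.02% of all genes lower, and 9 were 1.5-fold lower. Because the list was chosen with earlier results of these data known, these counts are no independent evidence. Their median was -0.90 against no stimulus and -0.04 against light touch. Over the 4 of them with 2 or more probes of 1 sign the median was -0.11 against no stimulus. Gcnt3, which makes the branched core of mucin sugars, had -4.11 (17.2-fold lower), and B3gnt6, which makes another core, had -2.97; neither had a value over light touch. Galnt7, which attaches the sugar next to those already on the protein, had -2.03, and the sialyltransferases St3gal4 and St3gal1 had -1.89 and -1.44, the last with 3 probes between -1.64 and -1.30. Of the transcription factors, Creb3l4 had -2.17, Creb3l1 -1.30 and Spdef, which drives mucous cell differentiation, -0.997, just short of 2-fold. C1galt1, which starts the common mucin core in most tissues, had 0.28, its chaperone C1galt1c1 -0.07 and the cell surface mucin Muc1 0.14. The gel-forming mucins Muc5b and Muc19 had no feature of that name, and Agr2, Tff2, Tff3, Nkx2-3 and Foxa1 had no value.

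**Figure D3:**
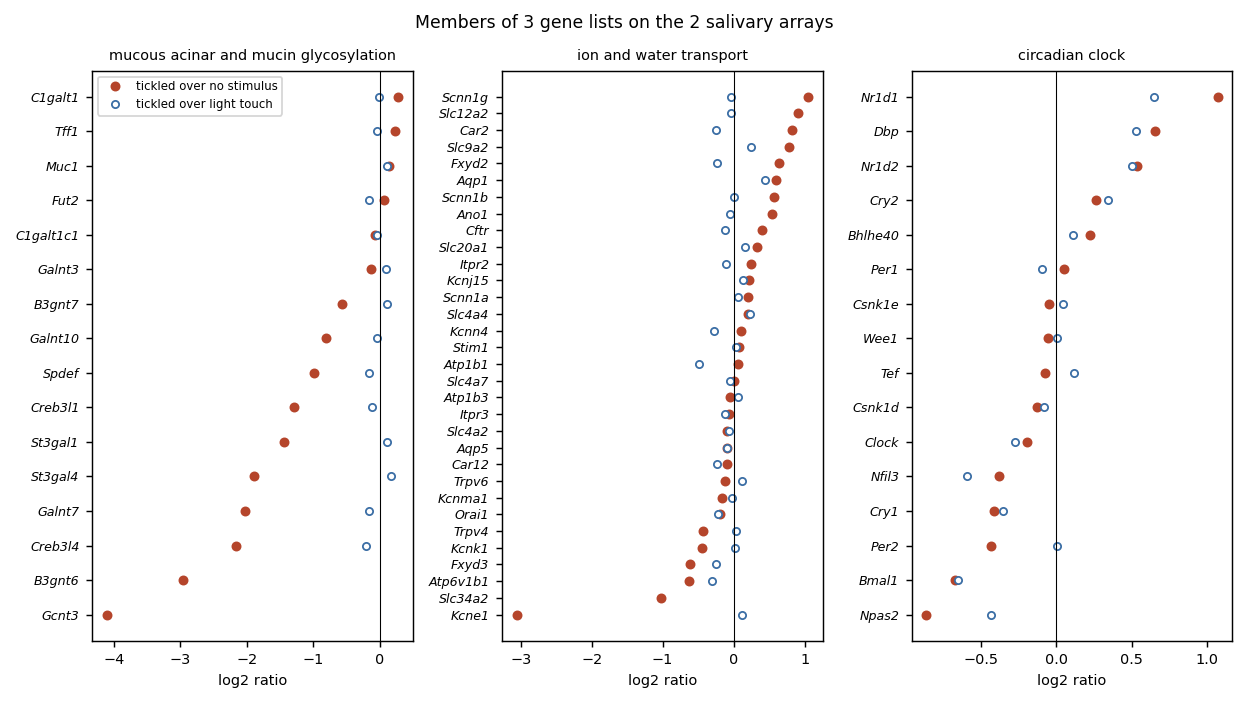
Log2 ratios of the members of 3 lists over no stimulus (filled) and over light touch (open). Mucin glycosylation genes reach -4.11 over no stimulus and lie between -0.20 and 0.17 where they had a value over light touch, transport genes run from -3.06 to 1.05, and clock genes run from -0.86 to 1.07.

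Other genes among the 25 lowest were of mixed kinds. Bcas1 had -3.51 and Tspan1, a tetraspanin of secretory epithelia, -3.46. Mme, the peptide-degrading enzyme neprilysin, had -2.59 (6.02-fold lower), Pf4, platelet factor 4, -2.74, Runx3, a transcription factor, -2.47, and Scgb3a1, a secretoglobin, -2.51. Their values over light touch lay between -0.24 and 0.10. Proteins that the liver is known to release into plasma were in this group too: Hpx, hemopexin, had -3.0, Fetub, fetuin B, -2.56 and Serpina1, alpha-1-antitrypsin, -2.36. Fetub was the exception over light touch, at -1.16, and Serpina1 had -0.27 there while Hpx had no value. Hsd17b2, which inactivates estradiol and testosterone, had -2.52 and -0.61.

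Transport of ions and water makes up the ductal and acinar steps of saliva formation. Of 32 listed genes with a value, 1 was 2-fold higher and 2 were lower, against 0.931% and 1.02% of all genes. Past 1.5-fold 6 were higher and 4 lower, against 2.94% and 2.74%, and the median was 0.07. Among genes of sodium and chloride transport, the sodium channel subunits Scnn1g, Scnn1b and Scnn1a had 1.05, 0.56 and 0.21, the cotransporter Slc12a2, which loads acinar cells with chloride, 0.90, the chloride channels Ano1 and Cftr 0.54 and 0.40, and Fxyd2, a modulator of the sodium pump, 0.64. Carbonic anhydrase Car2 had 0.82 and the sodium-proton exchanger Slc9a2 0.78. Kcne1, a potassium channel subunit, had -3.06 (8.33-fold lower), the phosphate transporter Slc34a2 -1.02 and the proton pump subunit Atp6v1b1 -0.63. The acinar water channel Aqp5 had -0.09 and Aqp1, the water channel of small vessels and myoepithelium, 0.60. Over light touch Kcne1 had 0.12, Scnn1g -0.03, Slc12a2 -0.03 and Car2 -0.25.

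Parotid proteins went both ways. Amy1, amylase, had -1.47 (2.78-fold lower) against no stimulus and 1.39 against light touch, and Rnase1 and Dnase1, secreted nucleases, had -1.98 and -1.26 over no stimulus and -0.29 and 0.13 over light touch. Lpo, lactoperoxidase (0.01), Prp15 (-0.17) and Prb3 (0.28) lay near 0, and Car6, the secreted carbonic anhydrase, had 0.59. Of 14 members 3 were 2-fold lower and 1, Prpmp5, was higher, against 1.02% and 0.931% of all genes. Their median was -0.13. Adipocyte markers were 2-fold lower over no stimulus for 3 of 14 genes: Car3, Adipoq (adiponectin) and Retn (resistin) had -1.68, -1.52 and -1.11 over no stimulus, and 1.61, 1.33 and 1.53 over light touch. The other 11 lay at or above -0.37, Lpl (0.10), Cidec (0.13) and Cd36 (0.91) among them.

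Of 41 listed folding and stress genes of the endoplasmic reticulum 0 were 2-fold apart and 1 was 1.5-fold lower, Pdia5, a disulfide isomerase, at -0.64, while 29 were below 0 and the median was -0.15. The chaperones Hspa5 and Hsp90b1 had -0.51 and -0.53. Dnajc10, a disulfide reductase of the same compartment that is not on the list, had -1.79. Cytosolic heat shock genes had a median of -0.14 over 22, with Hsph1 at -0.61 and Hspa1a at 0.40. The 25 genes of granule exocytosis had a median of 0.07 with 0 past 2-fold and 1 past 1.5-fold, Rab3a, at 0.64; the granule proteins Vamp8, Rab27b and Rab3d had 0.29, -0.32 and -0.11. Proteases that cut precursor proteins included Furin, at -1.13 and -0.79 over light touch, and Pcsk4 and Pcsk5, at 0.92 and 0.75. Bhlha15, the factor known as MIST1 that shapes serous acinar cells, had 0.35 and Sox10, a factor of acinar and Schwann cells, 0.80.

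Cell division genes were mostly below 0. Of 50 listed, 45 were below 0, 6 were 1.5-fold lower and 1 was 1.5-fold higher, with a median of -0.38, against -0.02 over light touch. Over all genes 5451 of 10522 were below 0, and 2.74% were 1.5-fold lower. Cdca8 had -0.86, Ube2c -0.84, the nucleotide enzyme Rrm2 -0.81, Cenpf -0.76 and Mki67 -0.49. The kinesins Kif23 (1.33) and Kif20a (0.55) stood apart from the rest on single probes. Immediate early genes, which stimulation induces within minutes, were mostly above 0, with 17 of 22 above 0, 5 past 1.5-fold and a median of 0.26. Of all 10522 genes, 5071 were above 0 and 2.94% were 1.5-fold higher. Nr4a1 had 1.12 and -0.10 over light touch, Jun 0.80 and 0.14, Dusp1 0.85 and 1.08, Dusp4 0.78 and 0.60, and Fos 0.26 and 0.40.

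Of 16 clock genes 2 were 1.5-fold higher and 2 lower, against 2.94% and 2.74% of all genes. Nr1d1, a repressor of Bmal1, had 1.07, Dbp 0.65, Nr1d2 0.54 and Cry2 0.26, while Npas2 had -0.86 with 3 probes between -1.03 and -0.47, Bmal1 -0.67, Cry1 -0.41 and Nfil3 -0.38. Per1 had 0.05 and Per2 -0.43. Over light touch Nr1d1 had 0.65, Dbp 0.53, Nr1d2 0.50, Bmal1 -0.65 and Npas2 -0.43; the 2 comparisons both carry tickled RNA. The sources used here do not tell the hour of sampling, and its part in these values was not tested.

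Hormone receptors differed little, with Thra at 0.17, Nr3c1, the glucocorticoid receptor, at 0.20 and Prlr at 0.45, except for Nr3c2, the mineralocorticoid receptor, at -0.999 with its 2 probes at -1.76 and -0.23. Hsd11b2, which protects that receptor from glucocorticoids, had 0.64. The glucocorticoid-induced genes Fkbp5, Tsc22d3 and Sgk1 had 0.68 (3 probes between 0.41 and 0.73), 0.33 and 0.25, against 0.44, 0.18 and 0.00 over light touch. Among autonomic receptors the muscarinic receptor Chrm3 had -0.29, the alpha-2A receptor Adra2a -0.54, the beta-1 receptor Adrb1 0.55 and the VIP receptor Vipr1 -0.55, and of 27 genes 1 was past 2-fold: Gnas, the stimulatory G protein, at -1.40 with its 2 probes at -2.48 and -0.32. Th, the enzyme that limits noradrenaline synthesis, had 1.40 and 0.08 over light touch. In the iron list Tfrc, the transferrin receptor, had -0.82 with 5 probes between -1.13 and -0.62, and -0.92 over light touch.

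**Figure D4:**
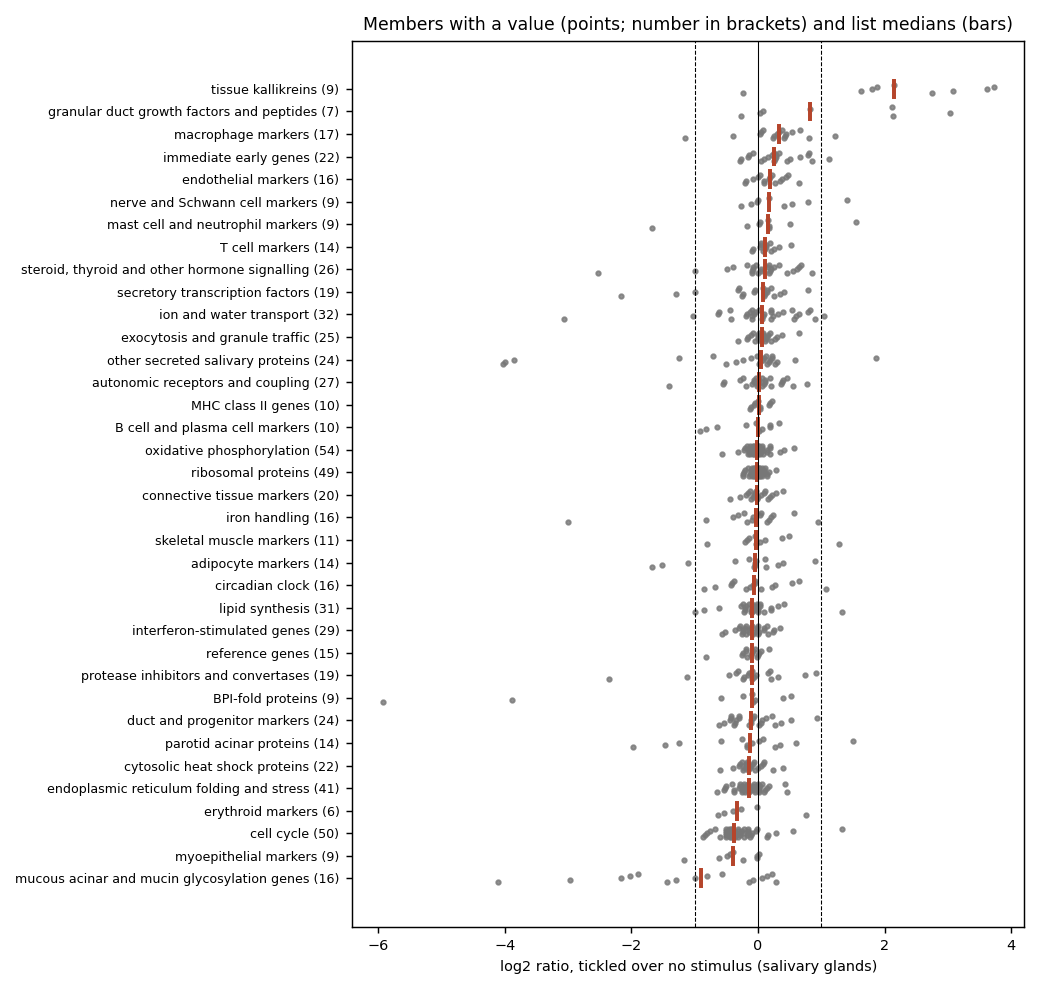
Log2 ratios, tickled over no stimulus, of the members of the 36 lists (points) with the median of each list (bar) and the number of members with a value. Tissue kallikreins (median 2.15) and mucous acinar genes (median -0.90) lie farthest out, and ribosomal and oxidative phosphorylation genes cluster at 0.

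Medians for markers of other cells ran from -0.39 (myoepithelial) to 0.32 (macrophage). These lay nearer 0 than the kallikrein and mucous medians, but some lay farther out than those of the parotid and ion transport genes. The part of these cells in the results above was not tested. Macrophage markers had a median of 0.32, with 15 of 17 above 0, against 5071 of all 10522 genes. Marco, a scavenger receptor, had 1.21, Mrc1 0.80 and Csf1r 0.66, but Cd14 had -1.15 with its probes at -1.22 and -1.08. Of 10 B cell and plasma cell markers 5 were above 0 and 5 below, with a median of -0.0044. Mzb1, Tnfrsf17 and Prdm1, known from plasma cells, were 1.5-fold lower at -0.93, -0.82 and -0.64, and the other 7 lay between -0.19 (Sdc1) and 0.33 (Cr2). Pigr, the epithelial carrier of secreted antibody, had -0.71. The immunoglobulin light chain segment Igkv28 had -2.35 and -1.10 over light touch. Myoepithelial markers had a median of -0.39 over 9, all but Des (0.01) below 0, with Cnn1 (-1.16) and Krt5 (-0.62) lowest; Acta2 and Myh11 had no feature of that name. Medians were 0.18 for 16 endothelial markers, 0.12 for 14 T cell markers, 0.01 for 10 MHC class II genes, -0.02 for 20 connective tissue markers, -0.03 for 11 skeletal muscle markers, -0.33 for 6 erythroid markers, 0.18 for 9 nerve and Schwann cell markers and 0.16 for 9 mast cell and neutrophil markers. Of duct and progenitor markers 0 of 24 were 2-fold apart; Bsnd had 0.93, Tfcp2l1 0.52, Krt19 -0.53 and Krt5 -0.62, and the median was -0.10.

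Housekeeping lists had medians near 0 on this array, which sets no scale of no difference for other genes. The 49 ribosomal protein genes lay between -0.23 and 0.29 with a median of -0.02. The 54 oxidative phosphorylation genes had a median of -0.01 and 0 past 1.5-fold, and interferon-stimulated genes had 0 of 29 past 1.5-fold and a median of -0.09. Of 15 reference genes, Tfrc was the 1 past 1.5-fold, and the median was -0.10. Lipid synthesis genes had a median of -0.09, with Srebf1, their regulator, at -1.0 and Acaca, acetyl-CoA carboxylase, at 1.32.

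The genes with 2 or more probes show the spread between probes. Among the 3674 such genes 11 were 2-fold higher (0.299%) and 11 lower (0.299%), a smaller share than over all genes. In several of them the probes were close. Tgfb2 had 1.39 and 1.54, B4galt6, which makes lactosylceramide, 1.31 and 1.37, and Pex11a, a peroxisome gene, 1.03 and 1.15. On the lower side Dnajc10 had -1.81 and -1.78, Epha5, an ephrin receptor, -1.75 and -1.65, Tgoln2, a protein of the trans-Golgi network, 3 probes between -1.23 and -1.15, and Kntc1 -2.96 and -2.15. In others they disagreed. Rasl12 had -4.25 and 0.38, Cdh22 -4.21 and -1.76, and Acaca 0.11 and 2.54, so that their gene values lie far from both probes. Over light touch these genes lay between -0.33 and 0.23. With 3 or more probes the widest values were St3gal1, Tgoln2, Acsl1 (-0.99, 4 probes between -1.06 and -0.90) and Id4 (-0.92) on the lower side, and Fkbp5, Atp1b2 (0.59), Ptn (0.58), Ctsl (0.57, 3 probes between 0.095 and 0.60) and Fgfr2 (0.56, 3 probes between 0.55 and 0.57) on the higher.

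**Figure D5:**
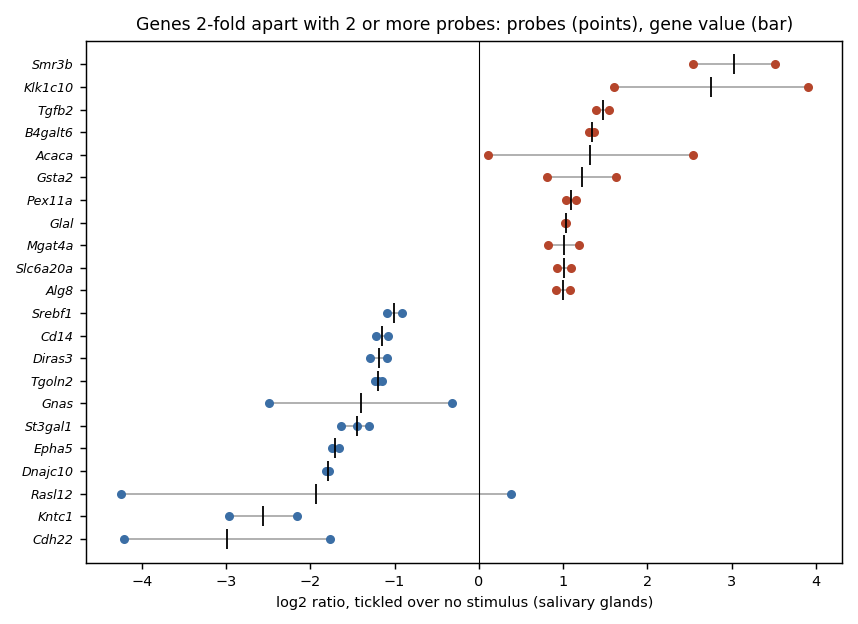
Log2 ratio of each probe (points) and the gene value (bar) for the 22 genes 2-fold apart with 2 or more probes, tickled over no stimulus. Most pairs of probes lie close together, and those of Rasl12, Cdh22, Acaca, Klk1c10 and Gnas are over 2 units apart.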

How the data were processed

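The authors deposited 1 log ratio per array feature, taken here as a log2 ratio of RNA of tickled rats (Cy5 per the labels) over RNA of their comparison rats (Cy3), with 500 ng of input RNA. Agilent Feature Extraction 9.1 is the tool that the submitters' processing notes list. The sources used here do not give normalization, log base or the rule for blanks; base 10 would put the largest absolute value, 7.75, at an implausible ratio, and natural logs were run as an alternative. Channel intensities were not used here.

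Of 44290 features, 25714 had a value on the array. Features were named through the platform annotation, updated by Entrez identifier in RefSeq (GRCr8): 23535 carried 1 symbol, 48 several and 20707 none, and only those with 1 symbol entered. Entrez identifiers matched for 23488. The value of a gene is the median of its probes. With 1 array there is no test; genes were counted at 2-fold. Python 3.11.15 with pandas 2.3.3 and Biopython 1.88 was used, and counting was tested on simulated data.

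Named genes were the 25 highest and 25 lowest, the members 2-fold apart of each of 36 lists (up to 8, otherwise the 2 widest), the 10 widest each way with 3 or more probes, the 5 widest each way with no value over light touch, and runs of neighbours; all probes of a named gene had to share a sign. Rasl12 and list members with smaller values were named after their values were seen. Members and lists were chosen with earlier results of these data known. Alternatives were the centring, the probe summary, a probe filter, natural logs, subtraction of the other tissues, features valued on all 6 arrays, and other thresholds.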

Additional observations from a re-analysis of the deposited data

How the results depend on the processing

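As deposited, 98 genes were 2-fold higher and 107 lower in tickled glands. Subtracting the array median, averaging probes or taking the probe of smallest absolute value kept both counts within 1.5 times. Of these genes 87 and 96 have 1 probe, so averaging or choosing a probe leaves their values unchanged. Genes with 2 or more probes of 1 sign gave 11 and 10 of 2106 tested, and features valued on all 6 arrays gave 19 and 20 of 5454, with fewer genes tested in both. Natural logs gave 221 and 206, a 1.5-fold threshold 309 and 288, and a 4-fold threshold 9 and 29. After the median of the other tissues was subtracted, 53 were higher and 88 lower of 9706. Before the subtraction the same 9706 genes held 61 higher and 67 lower. The granular duct median, 0.82 as deposited, was -0.028 over the 4 genes left by that subtraction, which lack Smr3b and Cyss. The mucous median, -0.90 as deposited, was -0.11 over the 4 genes with 2 or more probes of 1 sign. In both cases the medians cover different sets of genes. Of 129 named genes, the 79 past 2-fold kept their sign wherever they had a value. Naming required probes of 1 sign, and the array median was 0.002. Only subtraction of the other tissues could therefore have changed a sign. The kallikreins had no value in the all-array setting. No paired analysis was possible because the comparison has 1 array. Signal over background cannot be read from ratios, so dim probes could not be set aside.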

Other observations

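Genes and families of this section were chosen after their values were seen, and no test was possible on 1 array. Olfactory receptor genes, which encode odorant receptors of the nose, had 178 members with a value, of which 4 were 2-fold higher and 4 lower (4.49% in all, against 1.95% of all genes), with a range from -2.41 (Or2b2) to 2.85 (Or8c16). Among 28 glycosyltransferase genes of the Galnt, St3gal, B3gnt, B4galt and Gcnt families, 7 were 2-fold lower and 1 higher. That is 28.6% in all, against 1.95% of all genes, and the family median was -0.14. The lower ones include Gcnt3, B3gnt6, Galnt7, St3gal4 and St3gal1 of the mucous list, so both counts share these genes. Igkv28 and its neighbour Igkv2-112l2, light chain segments, had -2.35 and -1.80. The carboxylesterase neighbours Ces1d and Ces1e had -1.80 and -1.1, and the aldo-keto reductase neighbours Akr1c15 and Akr1c14 had 1.1 and 1.01.

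Prpf31, a splicing factor gene, had -1.23 against no stimulus and -1.23 against light touch in salivary glands, and -1.57 and -1.35 on the striatal arrays. Muc20, a cell surface mucin, stood at -1.93 against no stimulus and 0.28 against light touch. Ddc, the decarboxylase that follows Th in catecholamine synthesis, had -1.18, the opposite side of 0 from Th (1.40). Of 9862 features with a value and no gene symbol, 84 (0.852%) were 2-fold higher and 90 (0.913%) lower. The lowest of them had -7.75 and 0.03 over light touch, and the highest had 5.20 and 4.57.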
